A study of Mus musculus with 11 samples.

Results

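The 10 genes described here encode the receptor chains that use the common gamma chain of cytokine receptors, and the kinase and transcription factors that act below it: Il2ra, Il2rb, Il2rg, Il4ra, Il7r, Il15ra, Il21r, Jak3, Stat5a and Stat5b. They were taken by symbol from a table of 21957 genes, in which all 10 have an entry. The cells were primed OT1 cells, mouse CD8 T cells whose transgenic T cell receptor recognises a peptide of ovalbumin, called memory cells in the series. They were left unstimulated (labelled T0; the protocol gives a rest of 2 h) or activated for 2 h with CD3/CD28 beads, which carry antibodies against the T cell receptor complex and the costimulatory receptor CD28. All cells of both groups were then given cycloheximide, which halts translating ribosomes, for 10 min. Coding-sequence counts were made for RNA in 3 unstimulated and 3 stimulated libraries. Ribosome footprints, the mRNA fragments covered by translating ribosomes, were counted in 3 unstimulated and 2 stimulated libraries (replicates 2 and 3). The labels do not give the age of the animals, how the cells were primed, or whether the replicates came from different cultures or mice. The p-values therefore reflect the spread among these samples, which may be technical.

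Cytokines such as interleukin-2, interleukin-4, interleukin-7, interleukin-15 and interleukin-21 each bind a receptor with a private chain and share the common gamma chain, encoded by Il2rg. The gamma chain carries the kinase JAK3, and the partner chains carry JAK1. On binding, the kinases phosphorylate STAT proteins, chiefly STAT5A and STAT5B for interleukin-2, interleukin-7 and interleukin-15, which enter the nucleus and bind DNA. In CD8 T cells interleukin-7 and interleukin-15 keep memory cells alive, and interleukin-2 drives the growth of activated cells.

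Several of these genes are neighbours in the genome (GRCm38, gene positions from RefSeq). Il2ra (chromosome 2, 11642792 to 11693194) and Il15ra (chromosome 2, 11705172 to 11733985), which encode the alpha chains of the interleukin-2 and interleukin-15 receptors, lie 11978 bases apart with no coding gene between them. Il4ra (chromosome 7, 125552271 to 125579474) and Il21r (chromosome 7, 125603252 to 125634397) lie 23778 bases apart, likewise with no coding gene between them. Stat5b (chromosome 11, 100780731 to 100859004) and Stat5a (chromosome 11, 100859351 to 100885169) are separated by 347 bases. The promoters of the neighbours Il2ra and Il15ra, which rose together, and of Il7r, which fell, are shown here from the RefSeq table for GRCm38.p6, each from 250 bases before to 50 bases after a start site. Capitals mark matches to the motifs searched.
Il2ra, chr2:11642542-11642841, plus strand: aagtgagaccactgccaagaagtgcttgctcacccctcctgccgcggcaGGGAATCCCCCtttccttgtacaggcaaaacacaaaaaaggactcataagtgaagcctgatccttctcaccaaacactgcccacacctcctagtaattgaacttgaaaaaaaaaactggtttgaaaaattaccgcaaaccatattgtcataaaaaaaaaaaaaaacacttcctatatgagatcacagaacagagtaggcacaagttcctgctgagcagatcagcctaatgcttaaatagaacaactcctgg
Il15ra, chr2:11705462-11705761, plus strand (the second of 2 start sites listed): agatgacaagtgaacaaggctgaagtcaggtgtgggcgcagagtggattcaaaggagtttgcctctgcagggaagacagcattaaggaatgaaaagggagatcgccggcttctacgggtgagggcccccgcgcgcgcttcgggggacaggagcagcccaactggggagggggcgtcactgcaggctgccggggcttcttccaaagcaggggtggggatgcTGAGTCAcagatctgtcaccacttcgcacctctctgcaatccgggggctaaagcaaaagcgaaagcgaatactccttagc
Il7r, chr15:9529827-9530126, minus strand: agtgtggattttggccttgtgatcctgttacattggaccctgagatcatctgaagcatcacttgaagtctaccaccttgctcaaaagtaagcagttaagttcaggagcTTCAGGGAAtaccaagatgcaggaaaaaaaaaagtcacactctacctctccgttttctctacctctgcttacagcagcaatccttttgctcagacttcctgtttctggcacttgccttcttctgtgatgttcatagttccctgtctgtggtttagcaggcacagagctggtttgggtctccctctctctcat

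Of the 10 genes, 9 had 12 such windows (Il2rb had none), and 5 motifs were searched on both strands. They were the STAT letters TTCNNNGAA, the ETS letters CGGAAGT, the kappa-B consensus of NF-kappaB (a motif with purine and pyrimidine positions, widened from a narrower form after the Il2ra window was seen), the AP-1 letters TGANTCA and the FOXO letters GTAAACA. The Il7r window held 1 STAT match, TTCAGGGAA, whose first base lies 142 bases before the start site; 8.3% of all 32851 windows hold a STAT match. The Il15ra window shown held 1 AP-1 match, TGAGTCA, 30 bases before its start site, against 7.81% of all windows. The Il21r window held 1 FOXO match, 38 bases before its start site, against 3.65% of all windows. The Il2ra window held 2 overlapping kappa-B matches, GGGAATCCCC and GGAATCCCCC, whose first bases lie 201 and 200 bases before the start site. Windows of Il4ra and Stat5a held 1 kappa-B match each, against 8.46% of all windows. ETS matches, in 6.42% of all windows, were in none of the 12. The other 6 windows, among them the other Il15ra window and the other Stat5a window, held no match to any of the 5 motifs. A match is a description of the letters and not evidence that a factor binds there.

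RNA library totals were 21658263 to 39346699 counts and footprint totals 11136 to 23641. Levels are given as CPM, a gene's count relative to its library's total after TMM scaling (edgeR's correction for library composition). Single genes are not ranked by level, since no gene lengths were used. Genes of the olfactory, vomeronasal and defensin families, which T cells are not known to use, took 0.0300 to 0.189% of counts in unstimulated RNA and 0.0686 to 0.276% in stimulated RNA. The 10 CD8 T cell marker genes, among them Cd3e, Cd8a and Thy1, summed to 3360 to 3758 CPM in unstimulated and 2535 to 4020 CPM in stimulated RNA. Of the markers of other cells, the 12 myeloid and dendritic cell genes summed to 15.9 to 28.6 CPM in unstimulated and 39.0 to 40.4 CPM in stimulated RNA, without overlap. Zbtb46 made up the largest part, at a mean of 11.4 and then 22.3 CPM, and was the only gene of these 12 that passed. The 8 B cell genes summed to at most 19.4 and 23.7 CPM, the 5 NK cell genes to 2.55 to 4.03 and 3.73 to 5.87, and the 8 erythroid and platelet genes to 4.94 to 6.41 and 2.53 to 6.13. Cd4 and Foxp3 were each at or below 3.01 CPM. Hba-a1 and Hba-a2 were at 0 in all 3 stimulated libraries. The 4 genes of CD4 and regulatory T cells summed to 17.7 to 19.5 CPM in unstimulated and 45.5 to 62.6 CPM in stimulated RNA. Of these other-cell markers, Cd40lg, Ikzf4 and Zbtb46 rose and Alas2 fell; their part in the results below was not tested.

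In the RNA, the alpha chains of the interleukin-2 and interleukin-15 receptors and Stat5a rose 2.14- to 2.49-fold, while Il7r fell 2.53-fold. The chains shared by several receptors, Il2rb and Il2rg, did not pass the test, nor did Il4ra, Il21r, Jak3 and Stat5b. Of the 10 genes, 3 rose and 1 fell at an adjusted p under 0.05 (edgeR quasi-likelihood test, Benjamini-Hochberg over all 18886 genes tested), and 4 passed at an unadjusted p under 0.05. Among all genes tested 8.26% passed at the adjusted threshold, 3.58% higher and 4.68% lower. The share of all genes at an unadjusted p under 0.05 is not given. The median log2 change of the 10 was -0.08, and that of all genes tested was 0.39, with 7 of the 10 below it. All 10 were above 10 CPM, and in the fit over the 8502 genes of at least 10 CPM this gap was absent: the median of the 10 was 0.011, that of all genes 0.0036, and 5 of the 10 lay below it. In a bulk sample, fewer cells that express a gene and less RNA per cell cannot be told apart.

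**Figure D1:**
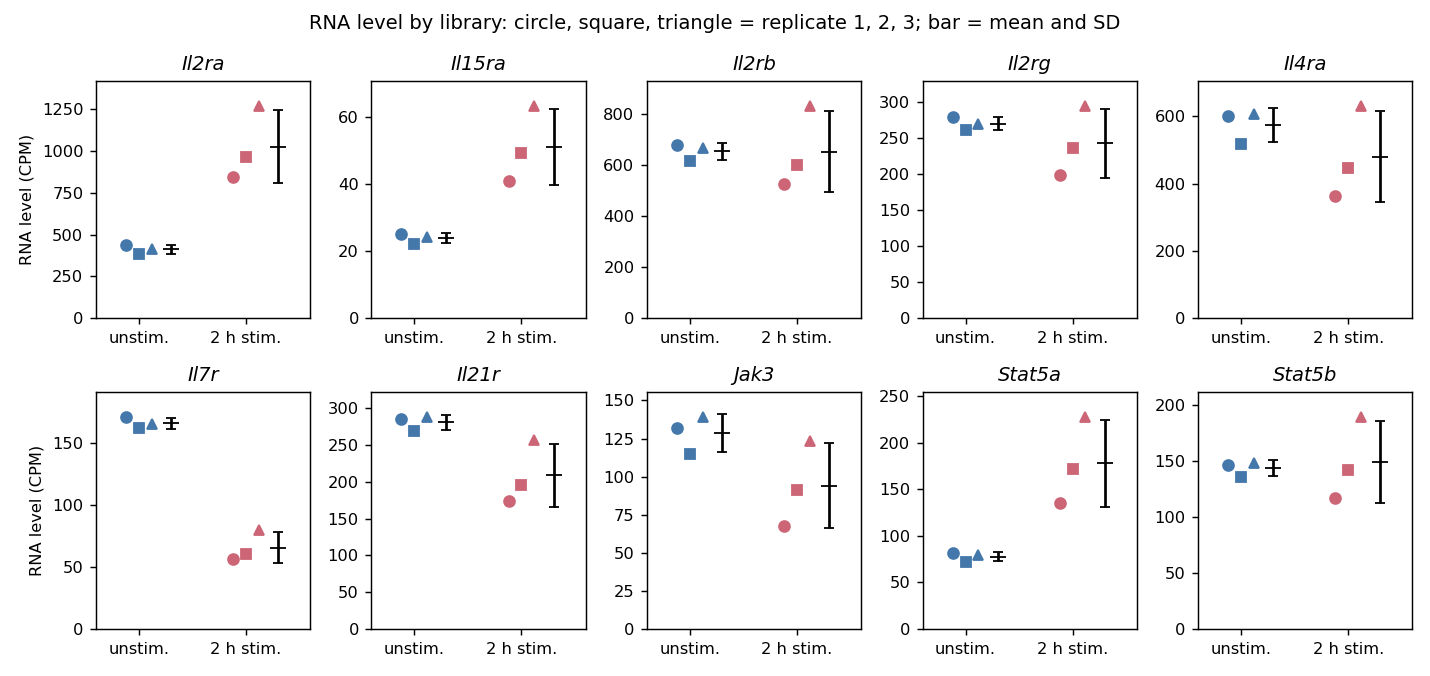
RNA level (CPM, each vertical axis starting at 0) of the 10 genes in every RNA library, 3 unstimulated (blue) and 3 stimulated (red), with the mean and SD in black. Il2ra, Il15ra and Stat5a are higher and Il7r and Il21r lower in all 3 stimulated libraries than in any unstimulated one, and stimulated replicate 3 (triangle) is the highest stimulated library in each of the 10 panels.

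Il2ra encodes CD25, the chain that turns the interleukin-2 receptor into its high-affinity form. Its RNA was at 437, 386 and 413 CPM in unstimulated replicates 1 to 3 and at 844, 964 and 1268 CPM in stimulated replicates 1 to 3. The groups did not overlap, and the lowest stimulated library was well above the highest unstimulated one. The rise was 1.32 ± 0.21 on the log2 scale (SE, edgeR adjusted p = 0.00379), and it passed in all 15 alternatives run, with log2 changes from 0.99 to 1.49.

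Il15ra encodes the chain that binds interleukin-15 with high affinity and can present it to neighbouring cells. It was at 25.1, 22.2 and 24.1 CPM in unstimulated libraries and at 40.8, 49.2 and 63.1 CPM in stimulated ones, with no overlap. The log2 change was 1.10 ± 0.18 (edgeR adjusted p = 0.00379). It passed in all 15 alternatives, from 0.78 to 1.28. Within each RNA library the Il2ra count was 17.1 to 17.4 times the Il15ra count in unstimulated cells and 19.6 to 20.7 times in stimulated cells, so the ratio of these neighbours moved 1.16-fold.

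Il7r encodes the interleukin-7 receptor alpha chain, CD127, a marker of resting and memory T cells. Its RNA was at 171, 161 and 165 CPM in unstimulated libraries and at 56.4, 60.6 and 79.5 CPM in stimulated libraries. All stimulated libraries lay below all unstimulated ones, and the unstimulated values had an SD of 4.58 CPM around a mean of 166. The fall was -1.34 ± 0.19 on the log2 scale (edgeR adjusted p = 0.00161), the smallest adjusted p of the 10 genes. It passed in all 15 alternatives, from -1.66 to -1.21.

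Il2rb encodes CD122, the signalling chain shared by the interleukin-2 and interleukin-15 receptors. It was at 679, 616 and 667 CPM in unstimulated and at 524, 599 and 829 CPM in stimulated libraries, so that the stimulated libraries spanned the unstimulated ones (log2 change -0.01 ± 0.22, edgeR adjusted p = 0.984). Il2rg, the common gamma chain, was at 279, 261 and 269 CPM and then at 198, 236 and 293 CPM, also with overlap (-0.15 ± 0.20, edgeR adjusted p = 0.572). Neither difference was larger than the spread between libraries in the main test. Il2rg passed as lower in 3 alternatives: with library totals (-0.34, adjusted p = 0.0358), without the 3 libraries with the most olfactory, vomeronasal and defensin counts (-0.35, adjusted p = 0.00896) and without unstimulated replicate 2 (-0.44, adjusted p = 0.00183). Il2rb passed as lower only without unstimulated replicate 2 (-0.32, adjusted p = 0.0235).

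Il4ra, the interleukin-4 receptor alpha chain, was at 601, 516 and 606 CPM in unstimulated and at 364, 445 and 629 CPM in stimulated libraries (-0.26 ± 0.23, edgeR adjusted p = 0.432). Its stimulated replicate 3 was above every unstimulated library while replicates 1 and 2 were below all of them. Its neighbour Il21r, the interleukin-21 receptor, was at 285, 269 and 288 CPM and then at 174, 196 and 257 CPM. These groups did not overlap, but the change of -0.43 ± 0.20 did not pass (edgeR adjusted p = 0.252). Il4ra passed as lower in 5 of the 15 alternatives and Il21r in 6, both without unstimulated replicate 2 (-0.61 and -0.73; adjusted p = 7.5e-04 and 2.1e-05) and without stimulated replicate 3 (-0.51 and -0.61; adjusted p = 0.0280 and 0.00300) among them. In all, the groups of libraries did not overlap for 5 of the 10 genes, against 29% of all genes tested.

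Jak3 (chromosome 8, 71676383 to 71690577), the kinase bound to the gamma chain, was at 132, 115 and 139 CPM in unstimulated and at 67.6, 91.0 and 123 CPM in stimulated libraries (-0.45 ± 0.22, edgeR adjusted p = 0.274). Stimulated replicate 3 overlapped the unstimulated range. Jak3 passed as lower in 6 of the 15 alternatives, among them without unstimulated replicate 2 (-0.81, adjusted p = 4.6e-05) and without stimulated replicate 3 (-0.70, adjusted p = 0.00841). Insl3 overlaps Jak3 in the annotation, but its own level was at most 1.77 CPM in any RNA library.

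Of the STAT5 genes, Stat5a rose and Stat5b did not pass. Stat5a was at 81.4, 71.7 and 79.5 CPM in unstimulated and at 135, 171 and 227 CPM in stimulated libraries, with no overlap (1.20 ± 0.21, edgeR adjusted p = 0.00572). That call was lost without stimulated replicate 2 (adjusted p = 0.0624, log2 change 1.03) and held in the other 14 alternatives. Stat5b was at 147, 135 and 148 CPM and then at 117, 141 and 189 CPM, with the stimulated libraries on both sides of the unstimulated ones (0.06 ± 0.20, edgeR adjusted p = 0.847). The direction of Stat5b turned with the scaling, with DESeq2, without the filter and when single libraries were left out, over a range of -0.27 (DESeq2) to 0.23 (with the share of olfactory, vomeronasal and defensin counts as a covariate). It passed as higher among genes of at least 10 CPM (0.14, adjusted p = 0.0115) and as lower without unstimulated replicate 2 (-0.26, adjusted p = 0.0345). The 2 genes are close paralogs, and how reads that match both were counted is not given in the sources used here.

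**Figure D2:**
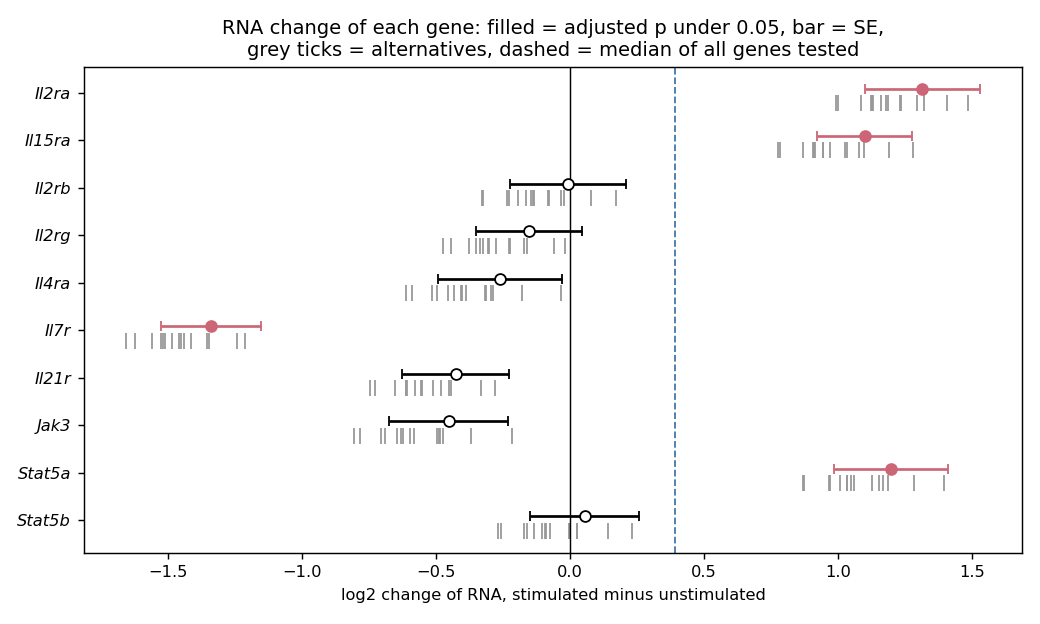
Log2 change of RNA (stimulated minus unstimulated, horizontal axis) of each gene with its SE, filled where the adjusted p is under 0.05, with each alternative as a grey tick and the median of all genes tested, 0.39, as a dashed line. Il2ra, Il15ra and Stat5a stay above 0 and Il7r, Il21r, Il4ra, Jak3 and Il2rg below 0 in every alternative, while Il2rb and Stat5b have ticks on both sides.

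The spread among stimulated libraries was shared by these genes. All 10 were highest in stimulated replicate 3 and lowest in stimulated replicate 1, and all 10 were lowest in unstimulated replicate 2. This order was not particular to the 10: the CD8 T cell markers Cd3d, Cd8a and Lck had it too. Cd8a, for example, was at 670, 562 and 654 CPM in unstimulated and 491, 576 and 806 CPM in stimulated replicates 1 to 3. The share of all genes with this order is not given. The SD was 18.8 to 29.7% of the mean in stimulated and 2.77 to 9.73% in unstimulated libraries. The share of olfactory, vomeronasal and defensin counts was 0.276, 0.203 and 0.0686% in stimulated replicates 1 to 3 and 0.0300, 0.189 and 0.0407% in unstimulated replicates 1 to 3. Its part in the spread was not tested. Without the 3 RNA libraries that held most of these counts, 8 of the 10 passed, 3 higher and 5 lower, against 40.7% of all genes (10.8% higher, 30% lower), with 1 stimulated library left whose spread is assumed to match the unstimulated pair. Without unstimulated replicate 2 alone, all 10 passed, 3 higher and 7 lower, against 67.8% of all genes (35.6% higher, 32.1% lower). Without stimulated replicate 3, 7 of the 10 passed (27% of all genes), and without stimulated replicate 2, 3 of the 10 (3.05%). The count was 8 of 10 among genes of at least 10 CPM, where 73.3% of genes passed, and 8 of 10 with library totals in place of TMM, where 27.6% passed. DESeq2 called 6 of the 10, adding Il21r (adjusted p = 0.0175) and Jak3 (adjusted p = 0.0282) as lower, against 13.5% of all genes (11.8% lower).

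Ratios of 2 genes within a library do not depend on the scaling of that library, and 8 such ratios were computed after the data were seen. The ratio of Stat5a to Stat5b counts was 0.555, 0.530 and 0.537 in unstimulated libraries and 1.16, 1.21 and 1.20 in stimulated libraries. It rose 2.20-fold, with an SD of 2.37% of the mean in unstimulated and 2.43% in stimulated libraries. Per library the groups were far apart, and each group varied by a few percent.

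The ratio of Il2ra to Il2rb, 2 chains of the same receptor, was 0.643, 0.626 and 0.619 in unstimulated and 1.61, 1.61 and 1.53 in stimulated libraries, a 2.51-fold rise. The ratio of Il2ra to Il7r went from 2.48 ± 0.0867 to 15.6 ± 0.558 (SD, n = 3 per group), a 6.28-fold rise. Il15ra against Il2rb rose 2.16-fold. These ratios moved in the same way in 3 of 3 stimulated libraries.

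Other pairs moved little. Il2rb against Il2rg rose 1.10-fold and Jak3 against Il2rg fell 1.25-fold, both without overlap between groups. Il4ra against Il21r was 2.11, 1.92 and 2.11 and then 2.10, 2.27 and 2.45, with overlap (exact two-sided permutation p = 0.30). For the other 7 ratios the exact permutation p was 0.10 (0.114 adjusted over the 8), the smallest that 3 against 3 libraries allow. A ratio shows that 2 genes changed unequally, not which of them moved.

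**Figure D3:**
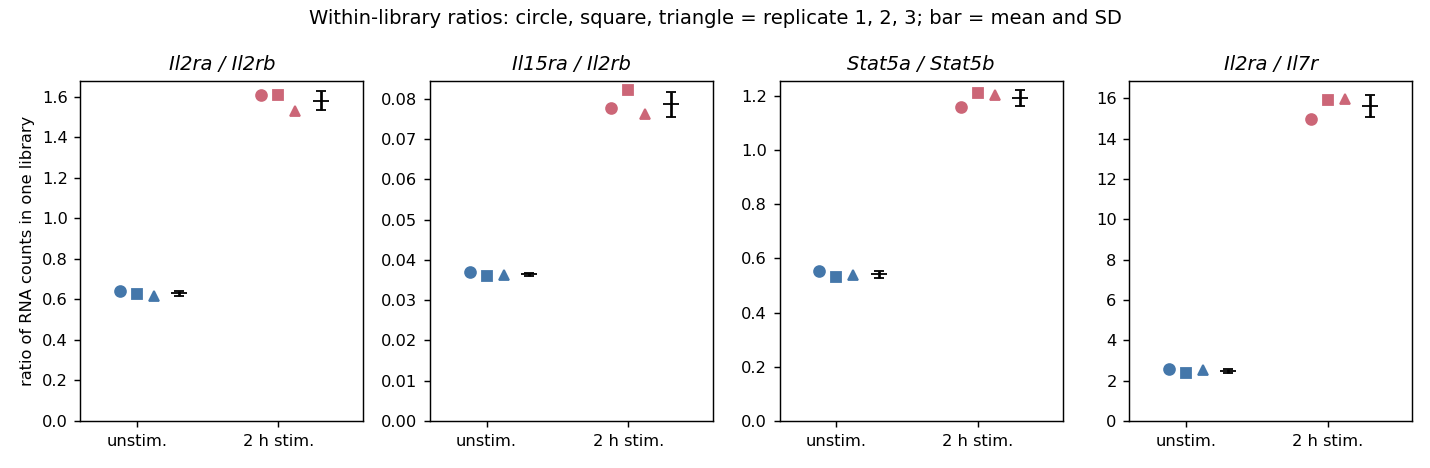
Ratio of the RNA counts of 2 genes in the same library (vertical axis from 0) for 4 pairs, 3 unstimulated (blue) and 3 stimulated (red) libraries, with the mean and SD in black. The 3 libraries of each group lie close together and the groups do not overlap: Stat5a to Stat5b, for example, goes from 0.530 to 0.555 up to 1.16 to 1.21.

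The RNA patterns of Il2ra and Il7r were compared with those of 8491 other tested genes of at least 10 CPM on average, by Pearson correlation of log2 CPM over the 6 RNA libraries. Most alike to Il2ra were Atmin, Lilr4b and Jaml (r = 0.9996, 0.9995 and 0.9995), whose log2 changes were 1.40, 1.31 and 1.47. Most alike to Il7r were Neil3, Hectd4 and Brca2 (r = 0.9996, 0.9995 and 0.9995), whose log2 changes were -1.07, -0.81 and -0.86. The points share the 2 groups and the scaling of each library, so these correlations are a description only.

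The ligands, partner chains and targets of the pathway were taken as 7 lists of 116 genes. Of the 6 gamma chain cytokines, 5 were tested and 1 passed: Il2 rose (5.89 ± 0.25, edgeR adjusted p = 4.3e-07), from 3.21 to 4.04 CPM in unstimulated libraries to 169 to 260 CPM in stimulated ones. Il4, Il7, Il15 and Il21 were below 4 CPM in every RNA library and did not pass, and Il9 was too low to test. Among receptor chains that pair with these, Il9r, Il13ra1 and the ligand Tslp were at 2 CPM or less, and Crlf2, which pairs with the interleukin-7 receptor chain to bind TSLP, was at 31.9 ± 4.93 and 31.8 ± 9.71 CPM (SD, n = 3 per group; -0.01, edgeR adjusted p = 0.986).

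The counts of the 4 lists that follow stand beside 3.58% of all genes tested higher and 4.68% lower. Far more genes passed in the separate fit over genes of at least 10 CPM, 3139 of 8502 higher and 3093 lower. Among 8 other JAK and STAT genes, 1 rose and none fell: the kinase gene Jak2 went from 161, 149 and 160 to 219, 257 and 324 CPM (0.77 ± 0.20, edgeR adjusted p = 0.0342). Of 18 inhibitors of receptor and JAK signalling, 1 rose, the adaptor gene Sh2b3 (0.80 ± 0.20, edgeR adjusted p = 0.0328). Of 26 adaptor, PI3-kinase and MAP kinase genes, 3 fell and none rose. These were Pik3r1, a regulatory subunit of PI3-kinase (238 ± 4.32 to 98.0 ± 18.3 CPM), Ptk2b and Mapk3, at -1.28, -0.74 and -0.66. Of 20 transcription factor genes linked to Il7r or Il2ra, Jun (2.24) and Fos (1.65), which form AP-1, rose and Klf2 (-1.05) fell, while Foxo1 and the other 16 did not pass.

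Among 34 genes known as targets of STAT5, 20 rose, 2 fell and 12 did not pass, where 3.58% of all genes tested rose and 4.68% fell. The median log2 change was 1.26 against 0.39 for all genes tested, and in the fit over genes of at least 10 CPM it was 1.17 (32 of the 34) against 0.0036. In that fit 3139 of 8502 genes passed as higher and 3093 as lower. The number of the 34 that passed in it is not given, so the shares over all genes tested are not those of equally abundant genes. The list was drawn up with earlier results of these data known, and many of its genes also answer to the T cell receptor. The suppressors of cytokine signalling Cish (2.99), Socs1 (1.95), Socs2 (1.39) and Socs3 (1.26) rose. Lif, a cytokine gene, went from 36.2, 31.3 and 35.9 to 223, 313 and 408 CPM, and Osm rose by 2.41 on the log2 scale. The survival gene Bcl2l1 rose (2.35), and Bcl2 (0.23) and Mcl1 (0.35) did not pass. The kinase genes Pim1 (1.34) and Pim3 (1.54) and the cyclin gene Ccnd2 (1.27) rose, and Pim2 (0.46) and Ccnd3 (-0.46) did not pass. The repressor gene Bcl6 (-2.93) and Igfbp4 (-1.05) fell.

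Footprints of the 10 genes were few: 113 in the 3 unstimulated libraries and 142 in the 2 stimulated ones, 255 of 85433 in all. Only 5 genes had a footprint in each of the 5 libraries, and 3 genes had fewer than 10 in all. Only Il2rb and Il2rg passed the filter on low counts. Neither passed the test in footprints (0 of 2 by edgeR, with 0 at an unadjusted p under 0.05, against 9.38% of the 256 genes tested). Without the filter 0 of 10 passed, with 0 at an unadjusted p under 0.05 (0.103% of 10647 genes passed), and DESeq2 called 0 of 10 as well (0.122%). At this depth the counts did not settle whether footprints of Il2ra, Il15ra, Stat5a or Il7r changed as their RNA did. Their counting intervals hold both no change and the RNA fold.

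**Figure D4:**
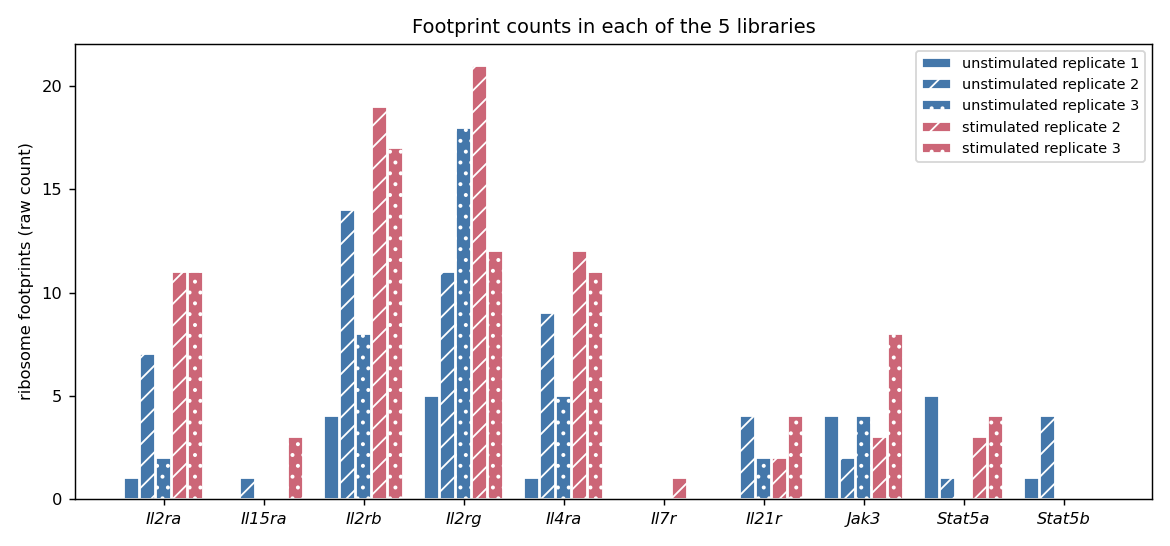
Raw ribosome footprint counts (vertical axis) of the 10 genes in 3 unstimulated (blue) and 2 stimulated (red) libraries. Il2rg has 67 and Il2rb 62 over the 5 libraries, not corrected for gene length, and Il7r has 1 footprint in 1 library.

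Il2rb had 4, 14 and 8 footprints in unstimulated replicates 1 to 3 and 19 and 17 in stimulated replicates 2 and 3. Scaled to library size the pooled level was 636 CPM (95% Poisson interval 416 to 932) and 789 CPM (552 to 1092), and the log2 change was 0.33 ± 0.55 (edgeR adjusted p = 0.753). Il2rg had 5, 11 and 18 and then 21 and 12 footprints (log2 change -0.15 ± 0.54, edgeR adjusted p = 0.911). Both sets of counts overlapped between groups once scaled.

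Il2ra had 1, 7 and 2 footprints in unstimulated and 11 and 11 in stimulated libraries. The pooled level went from 245 CPM (117 to 450) to 482 CPM (302 to 730), a ratio of 1.97 with an exact 95% counting interval of 0.895 to 4.66. The interval holds both no change and the 2.49-fold rise in RNA. Without the filter edgeR gave 1.21 ± 0.83 (adjusted p = 0.763).

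Il4ra had 1, 9 and 5 and then 12 and 11 footprints (ratio 1.37, 0.686 to 2.83). Jak3 had 4, 2 and 4 and then 3 and 8 (ratio 0.985, 0.380 to 2.59), and Il21r had 0, 4 and 2 and then 2 and 4 (0.895, 0.239 to 3.35). Stat5a had 5, 1 and 0 and then 3 and 4 (1.04, 0.301 to 3.76). Each of these intervals holds no change. They cover counting error only, and footprints without molecular identifiers need not be independent molecules.

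Il15ra, Stat5b and Il7r were nearly without footprints. Il15ra had 1 in unstimulated and 3 in stimulated libraries, and Stat5b had 1, 4 and 0 and then 0 and 0. For Stat5b the ratio of stimulated to unstimulated footprints was 0 with an upper limit of 0.977, but edgeR without the filter did not call it (adjusted p = 0.763). Il7r had 0 footprints in the 3 unstimulated libraries and 1 in the 2 stimulated ones, with unstimulated RNA at a mean of 166 CPM.

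The footprint level over the RNA level, each in scaled CPM, gives how many footprints a gene had for its RNA relative to the whole of each assay, and gene length cancels in it. For Il2rg it was 3.08 in unstimulated cells (95% counting interval 2.13 to 4.30) and 2.98 in stimulated cells (2.05 to 4.19). These intervals, like those of the counts, leave out the spread between libraries. The RNA totals under each value include the large share of Gm10800, Gm10801, Gm20594 and Lars2, whose part in these values was not tested. Jak3 was at 1.88 (0.903 to 3.46) and 2.56 (1.28 to 4.58). Il2rb was near 1 in both states, at 0.967 (0.632 to 1.42) and 1.21 (0.850 to 1.68).

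Il2ra lay below 1, at 0.590 (0.283 to 1.09) and 0.471 (0.295 to 0.712). Il21r was at 0.521 (0.191 to 1.13) and 0.630 (0.231 to 1.37), and Il4ra at 0.632 (0.354 to 1.04) and 1.05 (0.667 to 1.58). Stat5a was at 1.88 (0.689 to 4.09) and 0.862 (0.346 to 1.78), and Il15ra, with 4 footprints in all, at 1.02 (0.0258 to 5.69) and 1.29 (0.266 to 3.76).

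With 0 footprints, Il7r in unstimulated cells allows up to 0.442 and Stat5b in stimulated cells up to 0.441 (3 counts over the pooled libraries). In the other state Il7r was at 0.335 (0.00848 to 1.87) and Stat5b at 0.848 (0.275 to 1.98). The intervals of Il2rg did not overlap those of Il2rb, Il2ra, Il4ra, Il21r, Il7r or Stat5b in either state. They overlapped those of Jak3 and Il15ra in both states and that of Stat5a in unstimulated cells.

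Footprints were also tested against RNA in each state with edgeR, a test added after the data were seen. It took all 18886 genes that passed the filter in RNA, whatever their footprint count. Only 256 genes passed the filter in footprints, so the shares of all genes given here are mostly of genes with fewer footprints than Il2rg. Il2rg was higher in footprints in stimulated cells (1.76 ± 0.43, adjusted p = 0.0390), 1 of the 10 genes against 2.48% of all genes (2.13% higher). In unstimulated cells it was at 1.54 ± 0.41 and did not pass (adjusted p = 0.0528). There 0 of the 10 passed by edgeR, against 3.13% of all genes at the same adjusted threshold. At an unadjusted p under 0.05 were 2, Il2rg and Il7r (adjusted p = 0.0830 for Il7r). In stimulated cells 3 of the 10 were at an unadjusted p under 0.05: Il2rg, Jak3 (adjusted p = 0.292) and Stat5b (adjusted p = 0.208). The share of all genes at an unadjusted p under 0.05 is not given, so these counts cannot be called an excess. No other tool was run for this test.

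**Figure D5:**
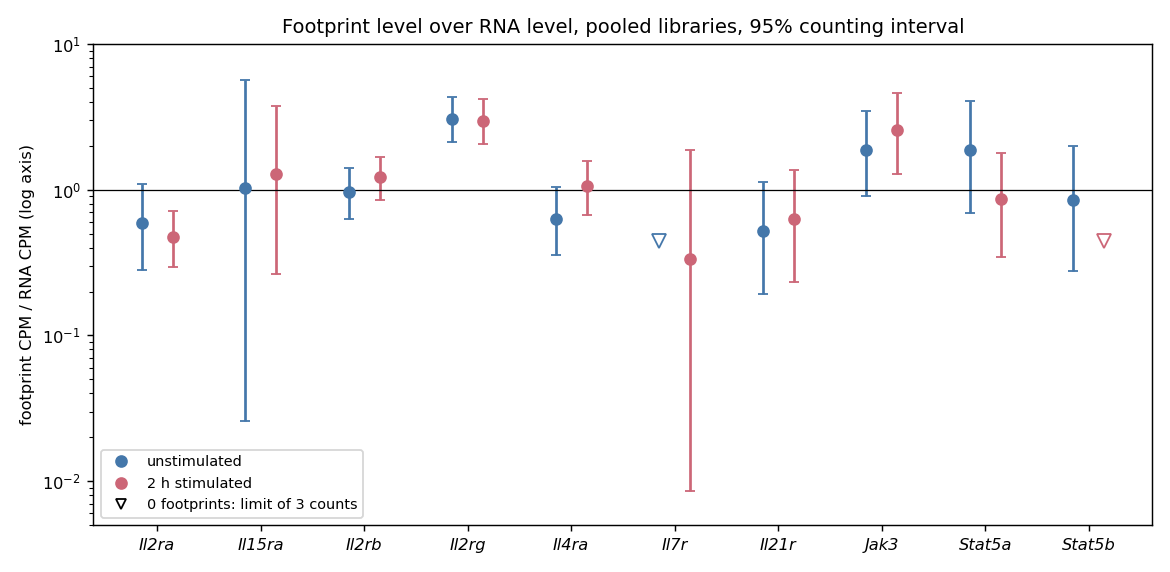
Footprint CPM over RNA CPM (log axis) of each gene in unstimulated (blue) and stimulated (red) cells, pooled over libraries, with 95% Poisson intervals of the footprint count; open triangles are the limit that 0 footprints allow. Il2rg sits highest, at 3.08 and 2.98, and the triangle of unstimulated Il7r is at 0.442.

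The change of footprints beyond that of RNA, tested in 1 model of all 11 libraries as an interaction between assay and stimulation, was 0.20 ± 0.37 for Il2rb (edgeR adjusted p = 0.794) and -0.18 ± 0.40 for Il2rg (edgeR adjusted p = 0.839). Of these 2 genes 0 passed, with 0 at an unadjusted p under 0.05, against 3.14% of 255 genes tested. Without the filter 0 of 10 passed (against 0.0376% of 10636 genes) and 1, Stat5b, was at an unadjusted p under 0.05. DESeq2 called 0 of 10, against 0.621% of genes at the adjusted threshold, and 2 were at an unadjusted p under 0.05. With no share of all genes at an unadjusted p given, these counts cannot be called an excess.

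Footprints rose for a ligand gene and a feedback gene of the pathway. Il2 had 0, 1 and 1 footprints in unstimulated and 13 and 29 in stimulated libraries (4.28 ± 0.93 without the filter, edgeR adjusted p = 0.00533). Cish, the STAT5-induced inhibitor, had 7, 0 and 4 and then 37 and 40 (2.57 ± 0.56, edgeR adjusted p = 1.2e-04). Of the 34 STAT5 target genes, 9 passed the filter on low footprint counts and 2 of them rose, Cish and Ifng, against 5.86% of all genes tested in footprints. Bcl6 had 2, 0 and 6 footprints and then 0 and 0.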

How the data were processed

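RNA and ribosome footprints were measured in 11 libraries. The submitters' processing notes name STAR 2.5 and the build mm10 (GRCm38); the counting tool, annotation release and strand handling are not given in the sources used here. The authors deposited whole-number counts of coding-sequence reads for each gene, not normalized. Identifiers were matched to symbols for 21838 of 21957 genes. The 10 genes and all lists were chosen with earlier results of these data known.

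Each assay was tested in R 4.3.3 with edgeR 4.0.16 (quasi-likelihood F test), TMM scaling and its filter (minimum count 10, minimum total 15). Efficiency was the interaction of assay and stimulation. The SE is the log2 change over the square root of F. Benjamini-Hochberg adjustment ran over all genes tested (threshold 0.05). Shares of all genes that passed are at this threshold, and none is given for an unadjusted p. DESeq2 1.42.0 was an alternative (limma 3.58.1 underlies edgeR). Fits were also run on simulated counts in which all libraries of an assay had the same gene shares, apart from set changes. The outcome is not given here, and such counts lack the differences in make-up between the real libraries. Alternatives were another scaling (RLE), another tool, no filter or a minimum of 10 CPM, the replicate number as a block, the share of olfactory, vomeronasal and defensin counts as a covariate (the background covariate), and each library left out. Poisson intervals of counts pooled over libraries are exact at 95%; a count of 0 allows 3 counts over the group. Named were all 10 genes, and from each list up to 4 genes that passed with at least 10 CPM, or the 2 most abundant; others named were chosen after their values were seen. Coding lengths were not used here, so levels of different genes are not ranked.

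Replicate numbers are shared by the groups, but the labels do not say what they mark. The deviations from the RNA group means of same-numbered libraries correlated at -0.79, 0.64 and 0.73. Those of unstimulated replicate 2 and stimulated replicate 1 correlated at 0.86. Deviations within so small a group are tied to each other, so this cannot show whether the numbers mark pairs. The main test did not take them as pairs.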

Additional observations from a re-analysis of the deposited data

How the results depend on the processing

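The rises of Il2ra and Il15ra and the fall of Il7r kept their direction and their call in all 15 alternatives, and Stat5a in 14. The number of the 10 genes called in RNA was 4 in the main test, 8 among genes of at least 10 CPM, 8 with library totals in place of TMM and 8 without the 3 libraries with the most background (the last 2 chosen after seeing the data), and 3 to 10 when 1 library was left out. Over all genes, RNA calls went from 1560 to 2892 with DESeq2, 2404 with the replicate block, 6232 among genes of at least 10 CPM, 3014 with the background covariate, 5220 with library totals, 7341 without the 3 libraries, and 583 to 13024 when 1 library was left out. The share of RNA calls that were higher was 43.4% with TMM, 19.7% with RLE scaling, 31.2% when Gm10800, Gm10801, Gm20594 and Lars2 were left out of the scaling, 19.3% with library totals, 12.3% with DESeq2, 28.9% without the filter and 64.4% with the background covariate, and the median change of all genes went from 0.39 with TMM to 0.19, 0.30 and 0.22 in the first 3 of these. With the replicate block the 4 calls among the 10 genes held and no other was added. Whether the numbers pair the samples is not known. Stat5b turned to -0.17 (RLE), -0.27 (DESeq2), -0.10 (no filter), -0.075 (scaling without those 4 genes), -0.13 (library totals) and -0.089 (without the 3 libraries), and to between -0.26 and 0.028 with 1 library left out. Il2rb turned to 0.081 among genes of at least 10 CPM and to 0.17 with the background covariate. Footprint calls went from 24 to 13 with DESeq2, 11 without the filter and 12 to 30 with 1 library left out, and efficiency calls from 8 to 66, 4 and, with library totals, 15, and 0 to 9 with 1 library left out. For Il2rg the footprint change turned to 0.13 (DESeq2) and 0.094 (no filter) and spanned -0.64 to 0.27 with 1 library left out. Its efficiency change turned to 0.27 (DESeq2), 0.18 (no filter) and 0.19 (library totals) and spanned -0.68 to 0.22, and that of Il2rb spanned -0.0025 to 0.61. The cause of these shifts was not tested. Footprint depth limits every statement on translation: 8 of the 10 genes had too few footprints for the main test.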
